A study of Mus musculus with 8 samples.

Results

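The 10 genes described here encode inhibitors and transcription factors that are switched on by RAS-ERK signalling (the MAPK pathway) and, in the case of the inhibitors, act back on it: the phosphatases Dusp4, Dusp5 and Dusp6, the Sprouty proteins Spry1, Spry2 and Spry4, the Spred proteins Spred1 and Spred2, and the ETS transcription factors Etv4 and Etv5. They were taken by name from the array annotation, out of 22836 genes measured. For all 10, the annotation as deposited named that gene alone for its probe set. The text for Etv4 ends early, so further genes may be missing from it. Expression had been measured in 8 tumours of the MT-ret model, which carries a ret oncogene under a metallothionein promoter and forms melanocytic tumours. Tumour fragments had been grafted onto the flank of C57BL/6N mice, and from day 7 the mice received an antibody against Ang2 (anti-Ang2, 4 tumours) or an isotype control antibody (IgG, 4 tumours) until the tumour was resected. Each value is the normalized intensity of 1 probe set on a whole-transcript array, given as log2, and comes from RNA of the whole tumour piece. Whether the grafted fragments came from a common donor tumour is not given in the sources used here, so p-values measure the spread between these tumours.

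Ret is a receptor tyrosine kinase that binds ligands of the GDNF family together with a GFRA co-receptor and activates RAS, RAF, MEK and ERK. ERK activity induces a small set of genes that limit the same pathway. Dusp6 removes the activating phosphates from ERK in the cytoplasm, Dusp5 does so in the nucleus, and Dusp4 is a nuclear phosphatase of ERK and other MAP kinases. Sprouty proteins act between the receptor and RAF, Spred proteins recruit neurofibromin to switch RAS off, and Etv4 and Etv5 are transcription factors of the PEA3 group whose transcripts follow ERK activity in many tissues. Levels of these transcripts are widely read as a measure of pathway output in melanoma.

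RefSeq promoter windows (GRCm38.p6, 250 bases before to 50 bases after the transcript start) were found for 7 of the 10 genes. No entry was found for Dusp4, Spry4 and Etv4. The windows of Dusp5 and Spry2 are shown because these genes had the most similar pattern over the 8 tumours, and that of Spred2 because it belongs to the next most similar pair, with Dusp4. They lie at chr19:53528895-53529194 on the plus strand (Dusp5), chr14:105896770-105897069 on the minus strand (Spry2) and chr11:19924192-19924491 on the plus strand (Spred2). Each is written 5′ to 3′ on the strand of the gene. Capitals mark matches on either strand to GGAAGT (a core bound by ETS factors), the CArG box (bound by SRF), TGACG (part of the longer CREB site) or TGANTCA (AP-1).
Dusp5: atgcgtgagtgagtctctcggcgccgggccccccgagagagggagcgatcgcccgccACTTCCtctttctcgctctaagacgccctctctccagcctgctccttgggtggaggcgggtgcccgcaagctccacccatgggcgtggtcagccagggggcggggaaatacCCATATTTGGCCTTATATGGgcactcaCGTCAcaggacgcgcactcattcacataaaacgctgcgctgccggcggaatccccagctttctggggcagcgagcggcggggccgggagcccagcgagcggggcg
Spry2: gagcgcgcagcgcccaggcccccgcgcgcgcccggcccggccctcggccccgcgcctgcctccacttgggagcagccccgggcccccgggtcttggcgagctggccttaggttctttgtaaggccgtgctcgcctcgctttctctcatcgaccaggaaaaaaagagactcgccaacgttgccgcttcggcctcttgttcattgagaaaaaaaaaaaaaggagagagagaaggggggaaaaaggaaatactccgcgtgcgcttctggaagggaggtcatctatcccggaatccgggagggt
Spred2: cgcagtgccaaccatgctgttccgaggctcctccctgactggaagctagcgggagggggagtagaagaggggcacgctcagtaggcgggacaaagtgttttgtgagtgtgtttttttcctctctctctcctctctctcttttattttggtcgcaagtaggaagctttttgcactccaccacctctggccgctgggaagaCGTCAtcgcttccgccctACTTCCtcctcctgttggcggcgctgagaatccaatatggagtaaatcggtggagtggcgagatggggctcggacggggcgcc
The Dusp5 window held 2 CArG boxes side by side, starting 82 and 72 bases before the transcript start. Of 32544 promoter windows of this length, 1.64% held at least 1 CArG box and 0.0184% (6 windows) held 2 or more. Dusp5 also had 1 GGAAGT, 193 bases before the start, and 1 TGACG, 55 bases before it. GGAAGT occurred in 23.7% of all windows, TGACG in 20.9% and TGANTCA in 7.79%. The Spred2 window held 1 GGAAGT and 1 TGACG, 33 and 51 bases before the start. No match to the 4 motifs was found in the windows of Spry2, Spry1, Spred1 and Dusp6. Etv5 has 2 windows, of which 1 held 2 matches to GGAAGT and the other none. The matches in these windows did not overlap each other, and they describe the letters only.

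The arrays had similar scale, with medians from 6.09 to 6.15 log2 units. Melanocytic markers were bright, and all 8 of them (among them Dct, Tyrp1, Pmel and Sox10) lay at or above percentile 92.0 of all gene means. The pieces also held other tissue. The mean of 8 skeletal muscle markers ranged from 6.00 to 7.67 log2 units in anti-Ang2 and from 6.45 to 9.97 in IgG tumours. All 8 muscle markers were lower in anti-Ang2 tumours, with a median difference of -1.58, 7 of 8 at an unadjusted p under 0.05 and 0 of 8 past the adjusted threshold (limma). The mean of 8 endothelial markers ranged from 6.91 to 7.38 in anti-Ang2 and from 6.91 to 7.11 in IgG tumours. In such bulk RNA, fewer cells of a type and less RNA per cell cannot be told apart. Over all genes 0 passed limma's test at an adjusted p under 0.05 (0% of genes; limma, Benjamini-Hochberg over 22836 genes), and 7.09% had an unadjusted p under 0.05.

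None of the 10 feedback genes passed the test for a difference between antibodies, given the spread between tumours. The count was 0 of 10 at an adjusted p under 0.05 and also 0 of 10 at an unadjusted p under 0.05, by limma, beside 4.09% of all genes at that level and higher and 3.00% lower. None of the 10 has a p-value under 0.05 in the authors' deposited table, where the smallest is 0.112. The genes lay on both sides of 0, with 5 higher and 5 lower in anti-Ang2 tumours. Their median log2 difference (anti-Ang2 minus IgG) was 0.0019, beside 0.012 over all genes, 53.6% of which were above 0. The differences ran from -0.25 for Dusp6 to 0.24 for Etv5, and the adjusted p-values from 0.733 to 0.966. All 10 pairs of groups overlapped, where 3.74% of all genes had groups that did not. The 95% intervals of the 10 genes all lay between -0.57 and 0.58 on the log2 scale.

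**Figure D1:**
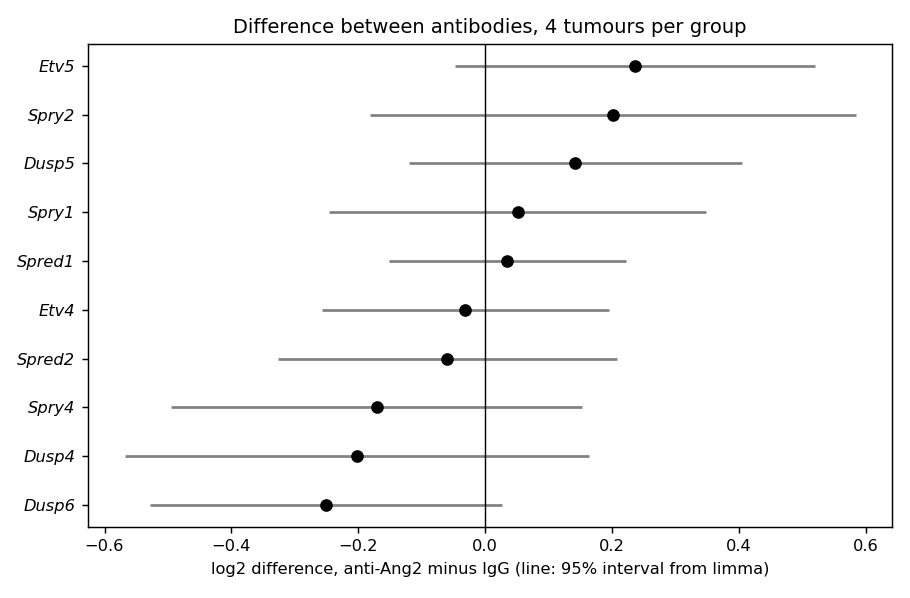
Log2 difference of each feedback gene, anti-Ang2 minus IgG (horizontal axis), with its 95% interval from limma as a line, for 4 tumours per group. Every interval includes 0, and the points run from -0.25 (Dusp6) to 0.24 (Etv5).

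Among the phosphatases, Dusp6 had the smallest p of the 10 genes. Its log2 intensities were 10.78, 11.33, 11.23 and 11.20 in anti-Ang2 replicates 1 to 4 and 11.48, 11.53, 11.28 and 11.26 in IgG replicates 1 to 4. The anti-Ang2 tumours were the 3 lowest of the 8, but anti-Ang2 replicate 2 lay above IgG replicates 3 and 4, so the groups overlapped. The means were 11.13 ± 0.24 and 11.39 ± 0.14 (SD, n = 4 each), a difference of -0.25 (SE 0.13; 95% interval -0.53 to 0.03) and a fold of 0.840 (probe set 17236882, chromosome 10). It did not pass (limma adjusted p = 0.733; two-sided exact permutation p = 0.114, where 0.0286 is the smallest possible). In the authors' deposited table, Dusp6 has a ratio of 0.846 and a p-value of 0.112. The difference was -0.13 without anti-Ang2 replicate 1 and -0.12 with the skeletal muscle mean as a covariate. That mean was 9.97 and 8.48 log2 units in IgG replicates 1 and 2, which had the highest Dusp6, against 6.00 to 7.67 in the other 6 tumours. The part of muscle tissue in the Dusp6 values was not tested beyond that covariate.

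Dusp4 stood at 9.57, 10.12, 10.46 and 10.17 log2 units in anti-Ang2 replicates 1 to 4 and at 10.29, 10.09, 10.26 and 10.47 in IgG replicates 1 to 4. A single anti-Ang2 tumour, replicate 1, was below the rest, and the other 3 lay within the range of the controls. The difference was -0.20 (SE 0.17, interval -0.57 to 0.16; limma adjusted p = 0.852; probe set 17500535, chromosome 8). It was -0.03 without anti-Ang2 replicate 1 and -0.33 without anti-Ang2 replicate 3 (limma adjusted p = 0.743). Dusp5 lay in the other direction, with 6.71, 7.01, 7.19 and 6.75 in anti-Ang2 and 6.78, 6.72, 6.93 and 6.66 in IgG tumours. Anti-Ang2 replicates 2 and 3 were the highest 2 of the 8, while replicates 1 and 4 lay within the controls' range. Its difference was 0.14 (SE 0.12, interval -0.12 to 0.40; limma adjusted p = 0.854; probe set 17360348, chromosome 19), and 0.05 without anti-Ang2 replicate 3.

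The 3 Sprouty genes had differences of either sign, none past the threshold. Spry2 measured 8.87, 9.25, 9.61 and 8.84 log2 units in anti-Ang2 replicates 1 to 4 and 8.93, 8.92, 9.22 and 8.69 in IgG replicates 1 to 4. Like Dusp5, it was highest in anti-Ang2 replicates 3 and 2 and in IgG replicate 3, and lowest in IgG replicate 4. Its difference was 0.20 (SE 0.17, interval -0.18 to 0.58; limma adjusted p = 0.856; probe set 17309340, chromosome 14). Leaving out anti-Ang2 replicate 3 gave 0.05 and leaving out anti-Ang2 replicate 4 gave 0.30, while the value was 0.12 when IgG replicate 4 was left out. Spry4 measured 8.64, 9.10, 9.34 and 9.27 in anti-Ang2 and 9.45, 9.26, 9.19 and 9.13 in IgG tumours. It was lowest in anti-Ang2 replicate 1, as Dusp4 was. Its difference of -0.17 (SE 0.15, interval -0.49 to 0.15; limma adjusted p = 0.856; probe set 17353957, chromosome 18) was -0.02 without that tumour and -0.11 without IgG replicate 1. Spry1 had 9.97, 10.06, 9.56 and 9.79 in anti-Ang2 and 10.09, 9.78, 9.67 and 9.62 in IgG tumours. It was the 1 feedback gene that lay above its own mean in anti-Ang2 replicate 1, and its difference was 0.05 (SE 0.13, interval -0.25 to 0.35; limma adjusted p = 0.962; probe set 17397170, chromosome 3). It was highest in IgG replicate 1, the tumour with the highest muscle mean (9.97) and macrophage marker mean (7.63) and the lowest melanocytic mean (11.10). With the skeletal muscle mean as a covariate the Spry1 difference was 0.29 (limma adjusted p = 0.681), and without IgG replicate 1 it was 0.15. The part of these tissues in it was not tested further.

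Spred1 was the steadiest of the 10 genes. Its 8 values ran from 8.95 to 9.20 log2 units, with a difference of 0.03 (SE 0.08, interval -0.15 to 0.22; limma adjusted p = 0.957; probe set 17374455, chromosome 2). The SD over the 8 tumours, 0.0812, was larger than that of 6.28% of all genes. Spred2 had 8.63, 8.93, 9.10 and 9.09 in anti-Ang2 and 8.97, 8.81, 9.06 and 9.15 in IgG tumours, lowest in anti-Ang2 replicate 1. Its difference was -0.06 (SE 0.12, interval -0.33 to 0.21; limma adjusted p = 0.948; probe set 17247519, chromosome 11), and 0.04 without that tumour.

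**Figure D2:**
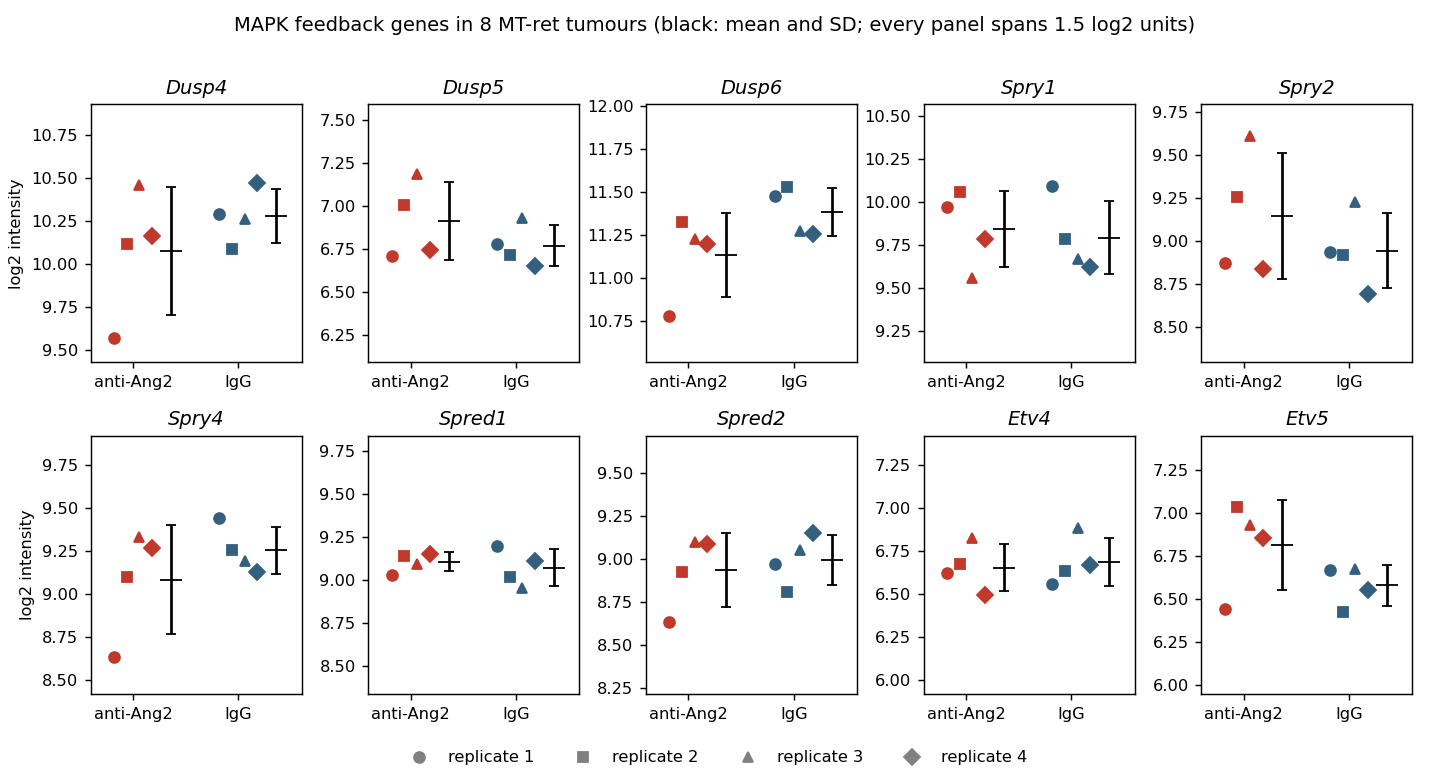
Log2 intensity (vertical axis) of each feedback gene in each tumour, red for anti-Ang2 and blue for IgG, with a symbol per replicate number and black bars for the mean and SD of 4 tumours. Each panel spans 1.5 log2 units, and anti-Ang2 replicate 1 (red circle) is the lowest tumour for Dusp4, Dusp6, Spry4 and Spred2.

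The transcription factors had dimmer probe sets, at percentile 61.3 (Etv4) and 61.7 (Etv5) of all gene means, as had Dusp5 at 64.0. The 7 other genes were at percentile 90.4 or above. Etv5 stood at 6.44, 7.03, 6.93 and 6.85 log2 units in anti-Ang2 replicates 1 to 4 and at 6.67, 6.42, 6.67 and 6.55 in IgG replicates 1 to 4. Anti-Ang2 replicates 2 to 4 lay above all 4 controls and replicate 1 lay at their lower end. The difference was 0.24 (SE 0.13, interval -0.05 to 0.52; fold 1.18; limma adjusted p = 0.751; two-sided exact permutation p = 0.143; probe set 17547943, chromosome 16). Without anti-Ang2 replicate 1 it was 0.36, still short of the threshold (limma adjusted p = 0.80, where the 17 alternatives gave 0.655 to 0.900). Etv4 had 6.62, 6.68, 6.83 and 6.49 in anti-Ang2 and 6.56, 6.64, 6.88 and 6.67 in IgG tumours. Its groups covered much the same range, and the difference was -0.03 (SE 0.10, interval -0.26 to 0.20; limma adjusted p = 0.966; probe set 17269954, chromosome 11).

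Anti-Ang2 replicate 1 stood apart for these genes. Anti-Ang2 replicate 1 lay below the 8-tumour mean for 9 of the 10 feedback genes. It was the lowest tumour for 4, Dusp4, Dusp6, Spry4 and Spred2. The share of all genes for which this tumour was lowest or below the mean was not counted, so a trait particular to the feedback genes cannot be read from these counts. Averaged over the 10 genes, it was 0.25 log2 units below the mean, while the other 7 tumours lay between -0.06 and 0.16. The same tumour had the highest mean of 13 hypoxia response genes (9.94 log2 units, against 8.82 to 9.82 in the others). Its endothelial (7.27) and muscle (6.31) marker means lay within the range of the other anti-Ang2 tumours, and its melanocytic mean (11.53) was just below theirs (11.54 to 11.61). The part of these in the low values was not tested. The SD was larger in anti-Ang2 than in IgG tumours for 8 of the 10 genes, beside 50.6% of all genes. This count was made after the values were seen. It includes Dusp4, Dusp6, Spry4 and Spred2, in which anti-Ang2 replicate 1 was the lowest tumour. It was not repeated without that tumour, and genes that vary together do not count separately.

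How the 10 genes varied together was examined over the 8 tumours as 45 pairs, with Pearson's r, Spearman's rho and exact permutation p-values adjusted over the 45 pairs (Benjamini-Hochberg). Of the 45 coefficients 35 were positive, with a median of 0.28 and a range of -0.62 (Spred1 and Etv4) to 0.99 (Dusp5 and Spry2). The median was 0.094 without anti-Ang2 replicate 1. The 45 pairs reuse the same 10 genes and are not independent, and the share of positive coefficients among pairs of other genes was not computed. For Dusp5 and Spry2, r was 0.986 (exact permutation p = 0.000223, adjusted p = 0.01) and rho 0.929 (exact permutation p = 0.00223, adjusted p = 0.1). The coefficient was 0.958 without the 2 tumours farthest from the Dusp5 median, 0.986 for deviations from the group means, and 0.967 to 0.992 with each tumour left out in turn. Of the 22835 other genes on the array, none followed Dusp5 more closely than Spry2 did, and none followed Spry2 more closely than Dusp5 did, a ranking made after the values were seen. The median r with Dusp5 over those genes was 0.05 and the 95th percentile 0.63.

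Dusp4 and Spred2 were the 1 other pair past the threshold by Pearson's r (r = 0.915, exact permutation p = 0.00196, adjusted p = 0.0441; rho = 0.905, exact permutation p = 0.00456, adjusted p = 0.103). No pair passed by Spearman's rho (smallest adjusted p = 0.1; 3 pairs at an unadjusted p under 0.05, where Pearson's r gave 5). Dusp5 and Etv5 were among these pairs by both coefficients (r = 0.743, exact permutation p = 0.0342, adjusted p = 0.385; rho = 0.810, exact permutation p = 0.0218, adjusted p = 0.327). Their r was 0.719 without anti-Ang2 replicate 1 and 0.394 without the 2 tumours farthest from the Dusp5 median. Over the whole array, 16 genes followed Dusp4 more closely than Spred2 did, and 8 followed Spred2 more closely than Dusp4 did. For Dusp4 and Spred2, r was 0.684 without the 2 tumours farthest from the Dusp4 median and 0.774 without anti-Ang2 replicate 1. The relations among Dusp6, Spry4 and Dusp4 rested on that tumour. Dusp6 and Spry4 had r = 0.838 (exact permutation p = 0.0284, adjusted p = 0.385; rho = 0.286, exact permutation p = 0.501, adjusted p = 0.961), which was 0.333 without anti-Ang2 replicate 1. Dusp4 and Spry4 had r = 0.80 (exact permutation p = 0.0461, adjusted p = 0.402; rho = 0.476, exact permutation p = 0.243, adjusted p = 0.911) and 0.143 without it. Spry1 had negative coefficients with Spred2 (-0.58), Etv4 (-0.55) and Dusp4 (-0.54), none of which passed (exact permutation p = 0.132, 0.16 and 0.162).

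**Figure D3:**
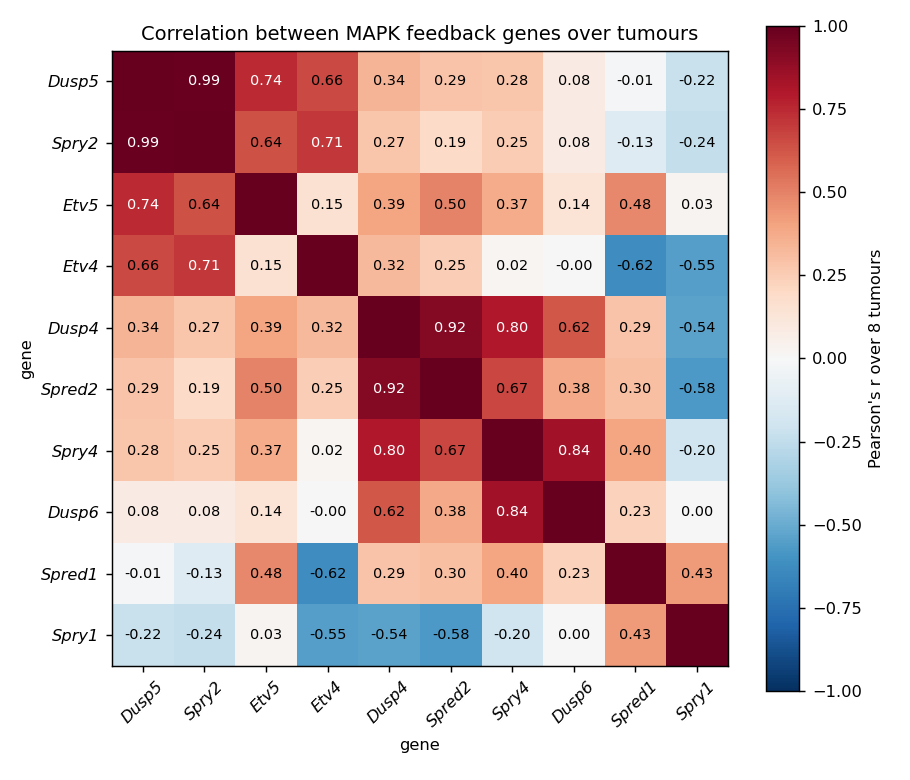
Pearson's r over the 8 tumours for each pair of feedback genes (both axes: genes; colour scale from -1 to 1). The highest off-diagonal value is that of Dusp5 and Spry2 (0.99), followed by Dusp4 and Spred2 (0.92) and Dusp6 and Spry4 (0.84).

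**Figure D4:**
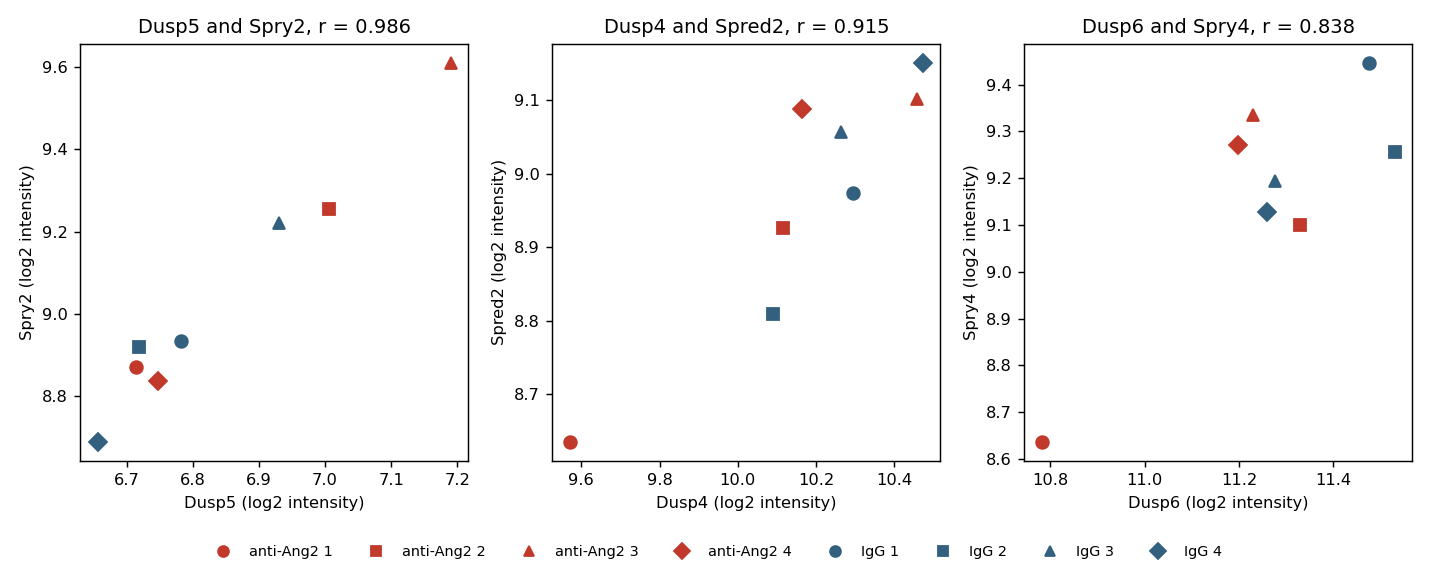
Log2 intensities of 3 pairs of feedback genes, a point per tumour (red anti-Ang2, blue IgG, symbols for replicates 1 to 4). Dusp5 and Spry2 follow a line through all 8 tumours, while in the Dusp6 and Spry4 panel anti-Ang2 replicate 1 lies apart at the lower left and r without it is 0.333.

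By a fixed rule, the 5 genes most alike to Dusp6 over the 8 tumours, among 10661 brighter genes, were Efcab14 (r = 0.975), Iqsec2 (r = 0.953), Rgl3 (r = 0.9502), Cetn3 (r = 0.9496) and Ifna4 (r = 0.948). The 5 most alike to the mean of the 10 genes were Phldb3 (r = 0.982), Rfc3 (r = 0.957), Lrrc27 (r = 0.956), Tmem104 (r = 0.949) and Aldh1l1 (r = 0.932). With 8 tumours and this many candidates, high coefficients are found for any gene, and they are given as a description.

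Upstream of the feedback genes, the array signal of Ret ran from 5.82 to 6.12 log2 units, at percentile 46.1 of all gene means, with a difference of 0.02 (SE 0.09; limma adjusted p = 0.973; probe set 17470119, chromosome 6). Whether this probe set reads the ret transgene is not given in the sources used here. Of the 9 measured genes of Ret, its co-receptors and its ligands, 2 were higher and 7 lower, with a median difference of -0.10. None passed over all genes. Gfra2, the co-receptor for neurturin, had the largest moderated t, with 6.29, 6.43, 6.43 and 6.47 log2 units in anti-Ang2 replicates 1 to 4 against 7.12, 7.17, 6.84 and 6.69 in IgG replicates 1 to 4. Its groups did not overlap (difference -0.55, SE 0.12, limma adjusted p = 0.444). Gfra1, the co-receptor for GDNF, had a difference of -0.34 (SE 0.21; limma adjusted p = 0.797) and was lowest, at 9.57, in anti-Ang2 replicate 1, as Dusp4, Dusp6, Spry4 and Spred2 were. Artn, a ligand that signals through Gfra3, had a difference of 0.14, and Gfra3 itself one of -0.10. Both were dim, at percentiles 38.1 (Artn) and 41.0 (Gfra3) of all gene means.

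In the cascade from receptor adaptors to ERK and the kinases it activates, 13 of 22 genes were higher and 9 lower, with a median of 0.08, and 0 of 22 passed (3 at an unadjusted p under 0.05, 1 higher and 2 lower; limma). Gab1, a docking protein for receptor kinases, had 9.52, 8.77, 8.79 and 8.66 log2 units in anti-Ang2 and 8.13, 7.97, 8.12 and 8.51 in IgG tumours. The groups did not overlap, and the difference was 0.76 (SE 0.18, fold 1.69, limma adjusted p = 0.472). Anti-Ang2 replicate 1, the tumour with low Dusp4, Dusp6 and Spry4, had the highest Gab1. The difference was -0.35 for Ptpn11, the phosphatase SHP2 that is needed for RAS activation (SE 0.14, limma adjusted p = 0.689), and -0.22 for Mknk2, a kinase activated by ERK whose groups did not overlap (SE 0.10, limma adjusted p = 0.705).

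Of the other inhibitors of the pathway 11 of 17 were higher, with a median of 0.05 and 0 of 17 past the threshold (1 at an unadjusted p under 0.05; limma). Spry3, a dim Sprouty gene at percentile 35.7, had a difference of 0.35 (SE 0.13, limma adjusted p = 0.670). The difference was 0.18 for Il17rd, the membrane inhibitor Sef, at percentile 48.4. It was -0.34 for Rasal2, a RAS GTPase-activating protein, and 0.35 (SE 0.37) for Dusp1, a stress-induced MAP kinase phosphatase. Among 12 measured readouts of ERK output 5 were higher and 7 lower, with a median of -0.04, and 0 passed (3 at an unadjusted p under 0.05; limma). Hmga2, a chromatin protein, had a difference of -0.42 (SE 0.14; limma adjusted p = 0.617). The difference was 0.31 (SE 0.13) for Phlda1, a pleckstrin-homology protein, 0.29 (SE 0.12) for Maff, a small Maf factor, and 0.21 for Plaur, the urokinase receptor. The cyclin gene Ccnd1 (-0.06) and Myc (-0.06) had differences near 0.

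Immediate early genes, many of which are induced by ERK within minutes and also by handling of tissue, were higher in 10 of 12, with a median of 0.15 and 0 past the threshold (5 at an unadjusted p under 0.05, 4 of them higher; limma). Atf3, a stress-induced factor, had a difference of 1.03 (SE 0.24, limma adjusted p = 0.472), and Fos, a subunit of AP-1, one of 0.59 (SE 0.19, limma adjusted p = 0.639). Egr1 stood at 0.31 and Egr3, a related zinc finger factor, at -0.61 (SE 0.24, limma adjusted p = 0.689). FGF ligands and receptors, which induce Sprouty, Spred and PEA3 genes in many tissues, had a median of 8.2e-05, with 6 of 11 higher and 0 past the threshold (1 at an unadjusted p under 0.05; limma). That gene was Fgf1, which encodes acidic FGF and had 8.58, 9.06, 8.87 and 8.88 log2 units in anti-Ang2 and 9.85, 9.60, 9.05 and 9.37 in IgG tumours (difference -0.62, SE 0.16, limma adjusted p = 0.546). It was highest in IgG replicates 1 and 2, as were Dusp6 and the skeletal muscle mean, whose part in it was not tested. Fgf18 (0.18), Fgf10 (0.13) and Fgfr4 (-0.10) were the other FGF genes with the largest moderated t. Fgf10 (means 5.51 in anti-Ang2 and 5.38 in IgG tumours) and Fgfr4 (5.80 and 5.90) were dimmer than the median gene (6.10). Hypoxia response genes, whose mean was highest in anti-Ang2 replicate 1, had a median of 0.47 over 13 measured genes, with all 13 above 0 and none past the threshold over all genes (9 at an unadjusted p under 0.05; limma), among them Kdm3a (0.54), P4ha2 (0.58), Ndrg1 (1.19) and Slc2a1 (0.72).

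**Figure D5:**
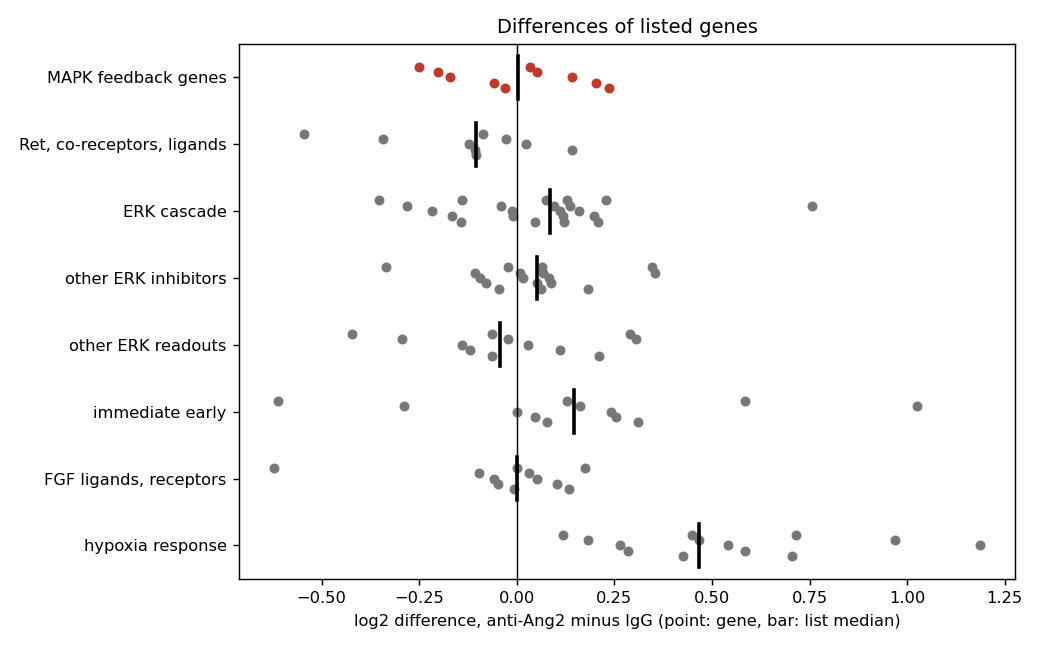
Log2 differences, anti-Ang2 minus IgG (horizontal axis), of the genes of 8 lists (rows), a point per gene and a black bar for the list's median. The 10 feedback genes (red) lie between -0.25 and 0.24 with a median of 0.0019, while the median of the hypoxia response genes is 0.47.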

How the data were processed

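Total RNA (250 ng) of 8 tumours was labelled as biotinylated cDNA for whole-transcript arrays, per the labels' protocols. The authors deposited 1 linear intensity per probe set and array. Background correction and normalization are not given in the sources used here. Recomputing them showed that the deposited ratio divides the group means of linear intensity and that the deposited p-value is Welch's, not adjusted. The log2 of the deposited intensities was taken here, without a pseudocount. Of 24648 probe sets, 22836 had values on all 8 arrays and 1 gene symbol, which was updated through a RefSeq table (GRCm38.p6). No gene had over 1 probe set, and no array was left out. For 1973 probe sets, Etv4's included, the deposited annotation text ends early, so further genes may be missing from it.

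Groups were compared by limma 3.58.1 in R 4.3.3 (lmFit, eBayes, 4.86 prior and 6 residual degrees of freedom), adjusted over all genes by Benjamini-Hochberg, threshold 0.05. Exact tests used the 70 assignments of tumours to groups, or all 40320 pairings for correlations. The limma fit was also run on simulated data with noise drawn separately for each gene, which does not copy genes that vary together.

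The members and lists were chosen with earlier results of these data known. Named are all 10 members, Ret, up to 4 genes per pathway list by moderated t, and the 5 most alike genes, without predicted genes. Ccnd1 and Myc were added after their values were seen. Some genes of these lists are not reported here. Alternatives were other normalizations, a filter on dim genes, other variance models, array weights, blocks, a muscle covariate and each tumour left out. Precision is set by 4 arrays per group.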

Additional observations from a re-analysis of the deposited data

How the results depend on the processing

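Under 17 alternatives for each of the 10 feedback genes, 0 of the 170 adjusted p-values fell under 0.05, and the count of feedback genes called was 0 under all 17. The direction held in every alternative for Dusp4, Dusp5, Dusp6, Spry2, Spry4 and Etv5. It turned in 6 of the 170 results, all with a tumour left out: with each tumour left out in turn, Etv4 ranged from -0.089 to 0.034, Spred1 from -0.0033 to 0.078, Spred2 from -0.12 to 0.042 and Spry1 from -0.020 to 0.15. Over the same runs the median of the 10 genes ranged from -0.03 to 0.02, and the count of all genes called from 0 to 1 (1 without anti-Ang2 replicate 2). Dusp6 had an unadjusted p under 0.05 without anti-Ang2 replicate 2 (difference -0.32, limma adjusted p = 0.790), as had Etv5 without anti-Ang2 replicate 1 (0.36, limma adjusted p = 0.80) and with array weights (0.29, limma adjusted p = 0.655). With the replicate block the median of the 10 genes was 0.0019 and 0 were called. Over all genes, the deviations of tumours with equal replicate numbers had correlations from -0.05 to 0.08. Tumours with unequal numbers were not compared, so these values do not settle whether equal numbers mark paired tumours. The median r over the 45 pairs was 0.42 for deviations from the group means and 0.06 without the 2 farthest tumours. Leaving out tumours for single pairs was chosen after seeing the data: Dusp4 and Spred2 had r from 0.774 to 0.959, Dusp6 and Spry4 from 0.333 to 0.888, and Dusp4 and Spry4 from 0.143 to 0.916. For Dusp5, Etv4 and Etv5 the probe sets lie closer to the median gene than those of the other 7 genes. Whether this limits the differences that can be read from them was not tested.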

Other observations

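Outside the 10 genes, and leaving out predicted genes and those dimmer than the median gene, the 3 closest to Dusp5 over the 8 tumours were N4bp3 (r = 0.924), Map3k13 (r = 0.923) and Cdipt (r = 0.916), and the same 3 genes were closest to Spry2 (Cdipt 0.961, N4bp3 0.948 and Map3k13 0.925). Map3k13 encodes a kinase of the JNK pathway and Cdipt the phosphatidylinositol synthase. Their differences between antibodies were 0.04 for N4bp3, 0.11 for Map3k13 and 0.07 for Cdipt, with limma adjusted p-values of 0.956, 0.875 and 0.903. This search was made after the values were seen and is given as a description. With r = 0.986 between Dusp5 and Spry2, a gene close to Dusp5 is also close to Spry2, so the shared genes are not a second result.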
